A study of Mus musculus with 11 samples.

Results

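The genes described here are 47 mouse interferon-stimulated genes, the STAT and IRF factors that drive them, and the guanylate-binding proteins (Gbp). They were chosen as a named list of symbols, which were matched to the gene IDs of the deposited count table, and all 47 were found among its 53700 genes. Expression was measured by bulk RNA sequencing of cells sorted as short-term haematopoietic stem cells (ST-HSC) from mouse bone marrow. Every host carried a transplanted acute myeloid leukaemia with Flt3-ITD, an activating mutation of a cytokine receptor kinase, and without Tet2, an enzyme that oxidises methylated DNA. In the hosts the chemokine gene Cxcl12 was either deleted with Cre (KO, titled Cre_pos) or intact (WT, titled Cre_neg). The hosts received either cytarabine, doxorubicin and quizartinib together (treated) or vehicle. There were 3 KO treated libraries (257, 263 and 276), 3 WT treated libraries (252, 262 and 266), 2 KO vehicle libraries (249 and 275) and 3 WT vehicle libraries (240, 253 and 265), and values are given in this order of libraries throughout. The labels give the strain as C57BL/6j. The promoter that drives Cre, the sort gate, the doses, the day of harvest and the animals' ages are not given in the sources used here. Whether each library is its own animal is not stated either, and the p-values reflect only the spread among these libraries, some of which may be technical.

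Interferons are secreted proteins that signal through paired receptors and the JAK kinases to STAT factors. Type I interferon mainly assembles STAT factors and IRF9 into a complex that binds the interferon-stimulated response element (ISRE), and interferon gamma mainly yields STAT dimers that bind the gamma-activated sequence (GAS). The induced genes sense foreign nucleic acid, block viral RNA and particles, modify proteins with ISG15 or ADP-ribose, and attack enclosed pathogens. Stem cells are known to hold some of these genes at a steady level, and interferon is known to push dormant haematopoietic stem cells into cycle.

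The sequences below show how those 2 elements sit before the start of members whose values are given in full further on. They were chosen among the 17 members given in full as those with a match in the 150 bases before the start. Each is the 150 bases before the transcription start in RefSeq on build GRCm38.p6, written 5′ to 3′ on the strand of the gene, with every match to ISRE (GAAA, any 2 bases, GAAA) or GAS (TTCNNNGAA) on either strand in capitals. That build differs from GRCm39, the build the submitters' processing notes name, so these positions belong to the RefSeq table alone.
Ifi203: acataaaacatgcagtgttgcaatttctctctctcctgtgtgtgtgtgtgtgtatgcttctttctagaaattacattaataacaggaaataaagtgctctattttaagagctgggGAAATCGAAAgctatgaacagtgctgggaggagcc
Gbp7: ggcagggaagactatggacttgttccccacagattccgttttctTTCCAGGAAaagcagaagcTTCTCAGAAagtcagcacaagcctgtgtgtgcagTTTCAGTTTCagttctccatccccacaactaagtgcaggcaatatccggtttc
Isg15: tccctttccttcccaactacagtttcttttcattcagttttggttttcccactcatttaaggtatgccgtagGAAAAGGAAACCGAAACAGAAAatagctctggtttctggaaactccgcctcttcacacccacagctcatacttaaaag
Bst2: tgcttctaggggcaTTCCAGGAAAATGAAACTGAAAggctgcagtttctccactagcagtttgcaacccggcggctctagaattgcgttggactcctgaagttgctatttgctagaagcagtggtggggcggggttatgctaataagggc
Irf1: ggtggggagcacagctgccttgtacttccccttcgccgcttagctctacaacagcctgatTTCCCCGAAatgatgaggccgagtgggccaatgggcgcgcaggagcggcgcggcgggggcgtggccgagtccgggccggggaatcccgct
Rsad2: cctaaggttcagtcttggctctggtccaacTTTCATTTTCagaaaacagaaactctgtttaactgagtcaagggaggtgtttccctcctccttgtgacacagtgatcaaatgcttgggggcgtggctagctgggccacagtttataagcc

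The windows lie at chr1:173942493-173942642, minus strand (Ifi203), chr3:142530186-142530335, plus strand (Gbp7), chr4:156200819-156200968, minus strand (Isg15), chr8:71537473-71537622, minus strand (Bst2), chr11:53769864-53770013, plus strand (Irf1) and chr12:26456453-26456602, minus strand (Rsad2). Isg15 holds 3 ISRE matches that overlap one another, from 78 to 57 bases before its start. In Bst2, 2 overlapping ISRE matches are preceded by a GAS match that shares bases with the first of them. Gbp7 holds 2 GAS matches and, nearer its start, 1 ISRE match on the reverse strand. Irf1 holds 1 GAS match and no ISRE match, while Ifi203 and Rsad2 hold 1 ISRE match each. The RefSeq table gave promoters for 30 of the 47 members and for 27025 genes in all, as windows from 250 bases before to 50 bases after the start. An ISRE match was found in 15 of the 30 members, 50%, against 3.99% of all genes, and a GAS match in 9 members, 30%, against 9.55% of all genes. Either match was found in 19 members, 63.3%, against 12.9% of all genes. A match is a description of letters, not of binding, and a window without one says only that these letters are not in it.

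**Figure D1:**
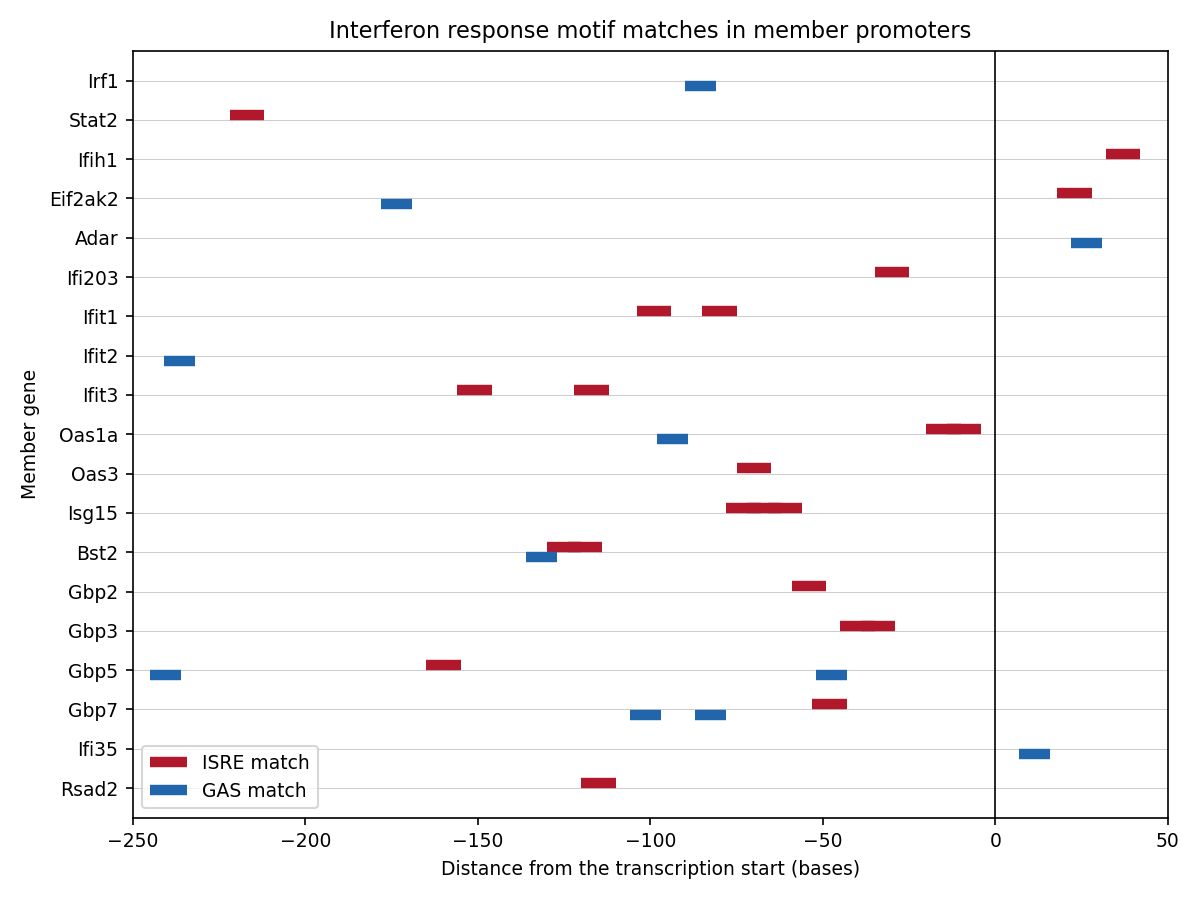
Matches to ISRE (red) and GAS (blue) along the promoters of the 19 members that hold either, plotted as distance in bases from the transcription start (0), with 1 row a gene. Most ISRE matches lie upstream of the start, and Isg15 and Bst2 show overlapping runs of them.

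Counts assigned to genes ran from 8.13 to 31.1 M per library, and every treated library (22.4 M or more) was deeper than any vehicle library (22.2 M or fewer), so depth and treatment cannot be told apart. Reads outside annotated genes took 5.98 to 30.4% of the table and were highest in KO treated library 257. WT vehicle libraries 253 and 265 showed 13589 and 14206 genes with a count, the lowest 2 of the 11. The sorted cells' label was compared with marker genes, and all 12 markers of stem and progenitor cells were measured. By median they ran from Slamf1, at 0 to 4.16 CPM over the libraries, to Cdk6, at 218 to 428 CPM. Kit stood at 20.5 to 243 CPM, Cd34 at 111 to 497 CPM and Cd48 at 184 to 900 CPM. Beside these, Mpo, a gene of granulocyte precursors, stood at 2258 to 15768 CPM and S100a8, a neutrophil gene, at 2577 to 36654 CPM. Mmp8 and Cxcr2, also on the neutrophil list, were lower, at 3.45 to 185 CPM and 0.862 to 40.2 CPM. T and NK cell markers were near 0, with 9 of 10 at a median under 1 CPM. Cxcl12, the gene deleted with Cre in KO hosts, stood at 1.201 to 4.63 CPM in KO treated hosts, 0.826 to 1.59 in WT treated hosts, 0 and 5.36 in KO vehicle hosts and 0 to 14.4 in WT vehicle hosts. Since the labels do not say whether the sorted cells are of the host or the transplant, Cxcl12 does not check the labels here. CPM is a gene's count divided by the library's gene counts in M, scaled by edgeR's TMM factors.

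All 47 members passed the filter on low counts, which kept 16639 genes. Levels between genes were compared per kilobase of exon, as the median over the 11 libraries. Ly6e stood highest at 323 CPM per kb, then Ifi27l2a at 107, Ifi27 at 70.2, Bst2 at 65.7, Isg15 at 27.2 and Gbp3 at 20.3. The lowest were Oas2 at 0.0581, Gbp4 at 0.0551 and Gbp6 at 0.00752 CPM per kb. The guanylate-binding genes thus lay at both ends of this order, and the other oligoadenylate synthetases ranged from 1.34 (Oas3) to 15.2 CPM per kb (Oas1a).

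Single libraries stood apart across the members. WT treated library 252 held the highest value of 20 of the 47 members, 42.6%, where it was highest for 8.83% of all genes tested. WT vehicle library 240 was highest for 11 members, 23.4%, against 8.09% of all genes. WT vehicle libraries 253 and 265 were lowest for 15 and 12 members, 31.9 and 25.5%, against 22.7 and 13.5% of all genes. In these 2 libraries 9 and 10 members had no count, against 0 to 3 members in each of the other libraries. The WT vehicle group thus joins 1 library that is high across the members with 2 that are low. The mean log2 CPM over the 47 members was 4.26 ± 0.24 in KO treated hosts (SD, n = 3), 4.13 ± 0.87 in WT treated hosts (n = 3), 3.23 ± 0.52 in KO vehicle hosts (n = 2) and 2.96 ± 1.52 in WT vehicle hosts (n = 3). Conventional dendritic cell markers (Flt3, Xcr1, Clec9a, Cd209a, Itgax and Zbtb46, all 6 measured) summed to 108 to 315 CPM in KO treated hosts, 499, 270.3 and 273 CPM in WT treated hosts, 193 and 189 CPM in KO vehicle hosts and 701, 247 and 206 CPM in WT vehicle hosts. The 2 libraries highest in these markers, 240 and 252, are the 2 that most often held the highest member value. In library 240 the sum was mostly Flt3 at 340 CPM and Cd209a at 297 CPM. Xcr1, Clec9a, Itgax and Zbtb46 stood there at 34.7, 10.7, 2.97 and 16.2 CPM. Flt3 is the gene mutated in this leukaemia and is also on the stem and progenitor list. The markers' part in the member values was not tested. In bulk cells, fewer cells of a type and less RNA per cell cannot be told apart.

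**Figure D2:**
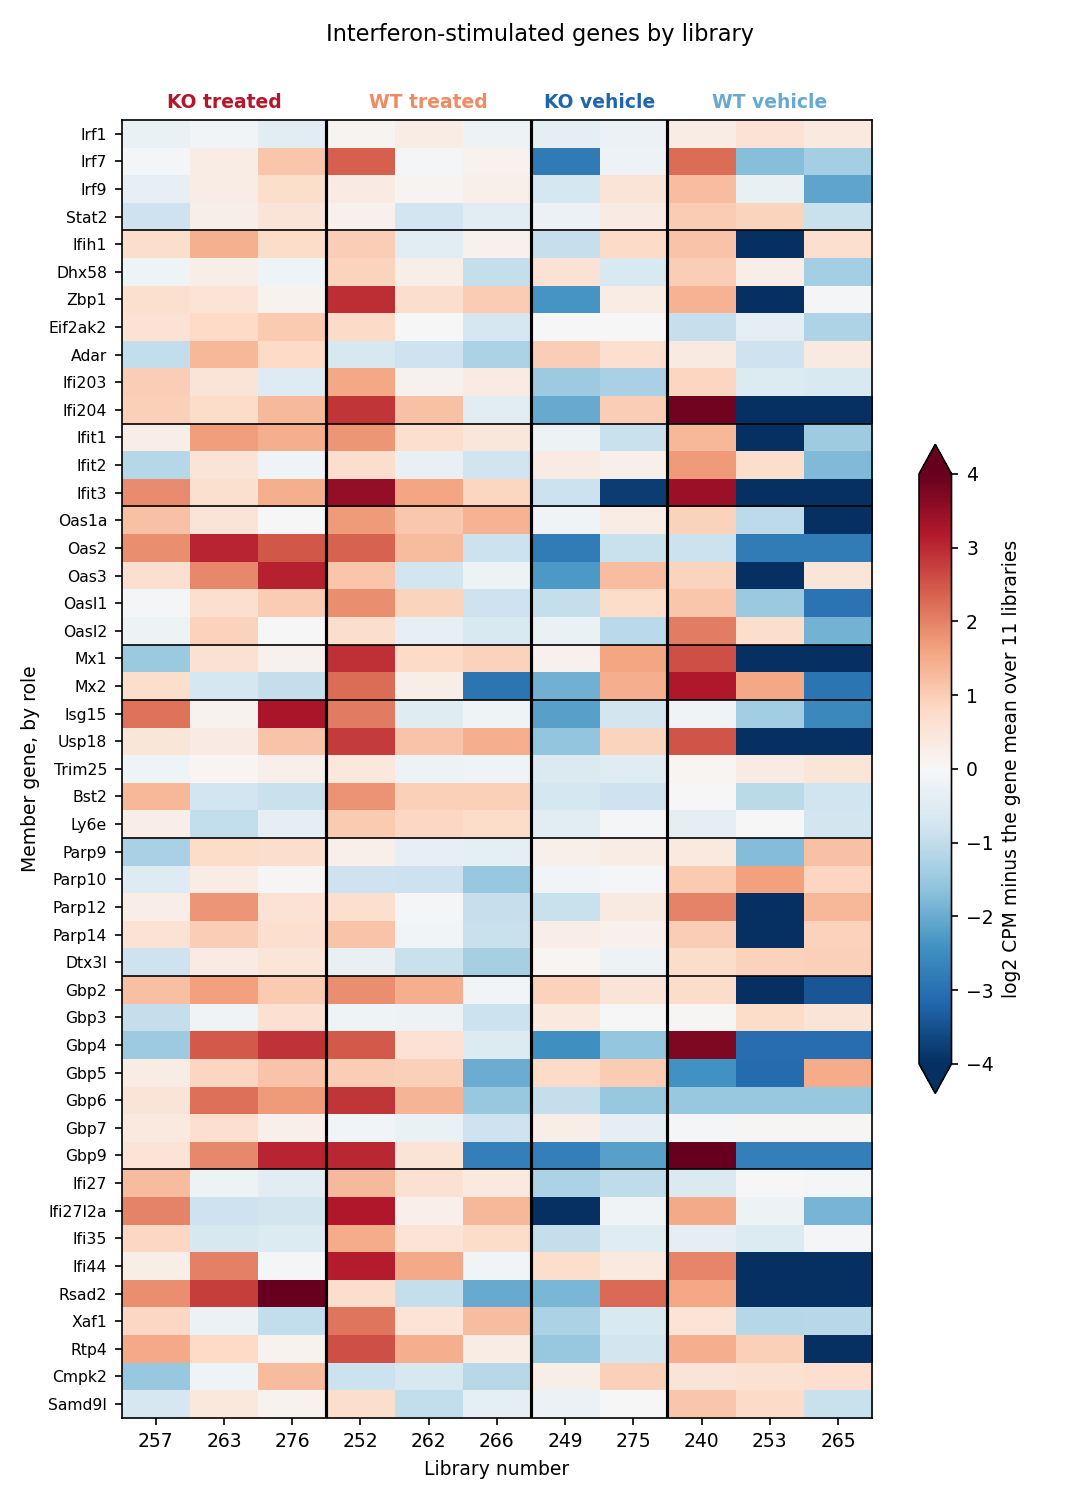
Level of each of the 47 members (rows, grouped by role) in each of the 11 libraries (columns, by group), as log2 CPM minus the gene's mean over the libraries. Libraries 252 and 240 are red over most rows, and 266, 249, 253 and 265 are blue over most rows.

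No member passed the test in any comparison. In edgeR's quasi-likelihood test with Benjamini-Hochberg adjustment over 16639 genes, 0 of the 47 members and 0 of all genes (0%) had an adjusted p under 0.05 for KO against WT in treated hosts, KO against WT in vehicle hosts, treated against vehicle in WT hosts, treated against vehicle in KO hosts, or the interaction of host and treatment. The smallest adjusted p of a member was 0.406, 0.729, 0.172, 1 and 0.767 in these 5 comparisons, in the order named, all by that test. Over all genes in the same order DESeq2 called 249, 224, 1106, 23 and 58, and limma voom 4375 and then 0 in the other 4. Calls of members by those tools are given at the end, and comparisons that share a group share its libraries.

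In treated hosts the members were split evenly by host genotype. Of the 47, 24 were higher and 23 lower in KO than in WT, and their median was 0.03 on the log2 scale against 0.10 over all genes tested. An unadjusted p under 0.05 was reached by 6 members, 12.8%, against 10.6% of all genes: Adar, Gbp7, Rsad2, Parp10 and Dtx3l on the higher side and Ly6e on the lower. The 3 libraries of each host did not overlap for 3 members that were higher in KO (Rsad2, Gbp7 and Parp10; 9.71% of all genes) and 3 that were lower (Mx1, Ly6e and Zbp1; 9.56% of all genes). These counts are 6.38% of the members each way. Without library 252, 13 members were higher without overlap (14.9% of all genes), the median was 0.48 and 35 members were higher in KO. Without library 257, 13 were higher (28.1% of all genes) and 9 lower (23.6%) without overlap, and without library 262, 6 were lower (12.6%). Marker sums also did not overlap for erythroid cells (18283 to 87831 CPM in KO treated hosts, 199.7 to 505 CPM in WT treated hosts), monocytes and macrophages (2279 to 5224 and 6606 to 18472 CPM) and B cells (38.1 to 66.4 and 72.4 to 123 CPM), and their part in the result was not tested.

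In vehicle hosts the members tended lower in KO, and that tendency rested on 1 library. There, 33 of 47 were lower in KO than in WT, and the median on the log2 scale was -0.39 against 0 over all genes. Without WT vehicle library 240 the median turned to 0.37 and 29 of the 47 were higher in KO. Parp10, Trim25, Ifi203 and Irf1 reached an unadjusted p under 0.05, all lower in KO, which is 8.51% of the members against 6.78% of all genes. The groups did not overlap for 2 members that were higher (Eif2ak2 and Adar; 13.2% of all genes) and 6 that were lower (Trim25, Irf1, Ifi203, Dtx3l, Parp10 and Ifi27), 12.8% against 7.47% of all genes. Leaving out each of the 5 libraries in turn gave 2 to 13 members on the higher side, with 13 without library 240 (23.6% of all genes) and 5 without 249 or 275 (23.5 and 22.2%). It gave 7 to 12 on the lower side, with 12 without library 265 (14.3% of all genes), 11 without 275 (12.9996%) and 10 without 253 (16.5%). Mitochondrial genes took 8.79 to 14.2% of gene counts in KO vehicle hosts and 17.2 to 27.4% in WT vehicle hosts. Marker sums did not overlap for plasmacytoid dendritic cells (81.1 to 84.0 CPM in KO vehicle hosts, 85.7 to 166 CPM in WT vehicle hosts), conventional dendritic cells (189 to 193 and 206 to 701 CPM) and B cells (28.9 to 41.1 and 52.2 to 58.3 CPM). Taken singly, every plasmacytoid marker overlapped, and so did every conventional dendritic cell marker except Clec9a. Most of the plasmacytoid sums came from Tcf4 and Bcl11a. Siglech stood at 1.57 and 0.286 CPM in KO and 10.5, 0.117 and 4.43 CPM in WT vehicle hosts. Flt3 stood at 174 and 72.9 CPM in KO and 340, 70.6 and 148 CPM in WT vehicle hosts. The part of the mitochondrial share and of these markers in the result was not tested.

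In WT hosts, treated against vehicle, members lay on both sides, and so did those of every role but ADP-ribosylation. Of the 5 ubiquitin-like and tethering members 4 were higher in treated hosts, and all 5 ADP-ribosylation members were lower. Of all genes 52.6% were higher. Higher members numbered 4 of 5 Oas, 2 of 3 Ifit, 4 of 7 sensors and 6 of 9 in the role called other. They numbered 2 of 4 regulators, 1 of 2 Mx and 3 of 7 guanylate-binding members. There were 26 higher and 21 lower members, and their median was 0.17 on the log2 scale against 0.09 over all genes. An unadjusted p under 0.05 was reached by 12 members, 25.5%, against 18.2% of all genes: Bst2, Ly6e, Ifi35, Xaf1, Gbp6, Oas2, Ifi27, Eif2ak2 and Isg15 were higher and Parp10, Dtx3l and Cmpk2 lower. The groups did not overlap for 5 members that were higher (Ifi35, Ly6e, Bst2, Oas1a and Ifi27; 17.5% of all genes) and 6 that were lower (Irf1, Cmpk2, Gbp3, Gbp7, Dtx3l and Parp10; 10.1% of all genes). The median turned to -0.46 without library 252 and to -0.10 without library 253, and stood at 1.18 without library 240. Members higher without overlap numbered 23 without library 240 (29.1% of all genes) and 10 without library 266 (24.8%), and lower ones 9 without library 253 or 265 (17.0 and 16.3%). Several properties of the libraries also did not overlap here. Reads outside genes were 6.33 to 16.6% in WT treated hosts and 17.97 to 28.8% in WT vehicle hosts, and mitochondrial genes took 2.86 to 14.95% and 17.2 to 27.4% of gene counts. Marker sums were higher in WT treated than in WT vehicle hosts for plasmacytoid dendritic cells (218 to 246 and 85.7 to 166 CPM), B cells (72.4 to 123 and 52.2 to 58.3 CPM) and T and NK cells (6.63 to 19.5 and 0.0583 to 2.71 CPM), and lower for stroma and endothelium (42.8 to 64.7 and 87.9 to 166 CPM). Over the 11 libraries, 9 of 10 T and NK cell markers had a median under 1 CPM. So did 6 of 7 B cell markers and 4 of 7 stroma and endothelium markers. Cd8a, at 10.5, 3.30 and 3.61 CPM, was the largest part of the T and NK cell sums in WT treated hosts. Pecam1 and Vcam1 made up most of the stroma and endothelium sums. The part of these in the result was not tested.

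In KO hosts, treated against vehicle, most members were higher in treated hosts. Of 47, 38 had a positive log2 fold change, where 56.1% of all genes had one, and the median was 0.58 against 0.12 over all genes. The 3 treated libraries lay above both vehicle libraries for 16 members, 34.04%, against 12.3% of all genes. These were Trim25, Eif2ak2, Irf7, Gbp2, Gbp9, Oasl2, Oas2, Rtp4, Parp14, Ifit1, Isg15, Ifi203, Ifi27, Ifit3, Gbp4 and Gbp6. They lay below both for 0 members, against 10.1% of all genes. Leaving out each of the 5 libraries in turn gave 16 to 30 such members on the higher side, where 15.8 to 24.0% of all genes lay, and 0 to 2 on the lower side, where 14.7 to 21.4% lay. Leaving out each of the 11 libraries kept the median between 0.56 and 0.97, with 32 members higher without library 249 and 41 without library 257. Without library 275, 30 members were higher without overlap (24.0% of all genes), and without library 249, 263 or 276, 2 were lower. An unadjusted p under 0.05 was reached by 4 members, Isg15, Ifi27, Ifi203 and Oas2, which is 8.51% against 3.68% of all genes. Marker sums also did not overlap here for plasmacytoid dendritic cells (158 to 236 CPM in KO treated hosts, 81.1 to 84.0 CPM in KO vehicle hosts), erythroid cells (18283 to 87831 and 270.3 to 14283 CPM) and neutrophils (9476 to 28265 and 32776 to 53951 CPM). Of the neutrophil markers taken singly, Ngp, Ltf and Mpo were lower in KO treated hosts without overlap and the rest overlapped. Mean Mmp8 and Retnlg were higher in KO treated hosts (111 and 285 CPM) than in KO vehicle hosts (98.4 and 164 CPM). Counts in genes were 25.5 to 26.4 M in KO treated hosts and 19.6 to 22.2 M in KO vehicle hosts, and genes with a count 19080 to 20444 and 17301 to 18228. The part of these in the result was not tested.

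The interaction, which is the KO minus WT difference in treated hosts minus that in vehicle hosts, was positive for 32 of 47 members with a median of 0.63 against 0.11 over all genes. Without library 240 it was -0.52 with 20 positive. Parp10, Dtx3l and Ly6e reached an unadjusted p under 0.05, which is 6.38% of the members against 6.31% of all genes.

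**Figure D3:**
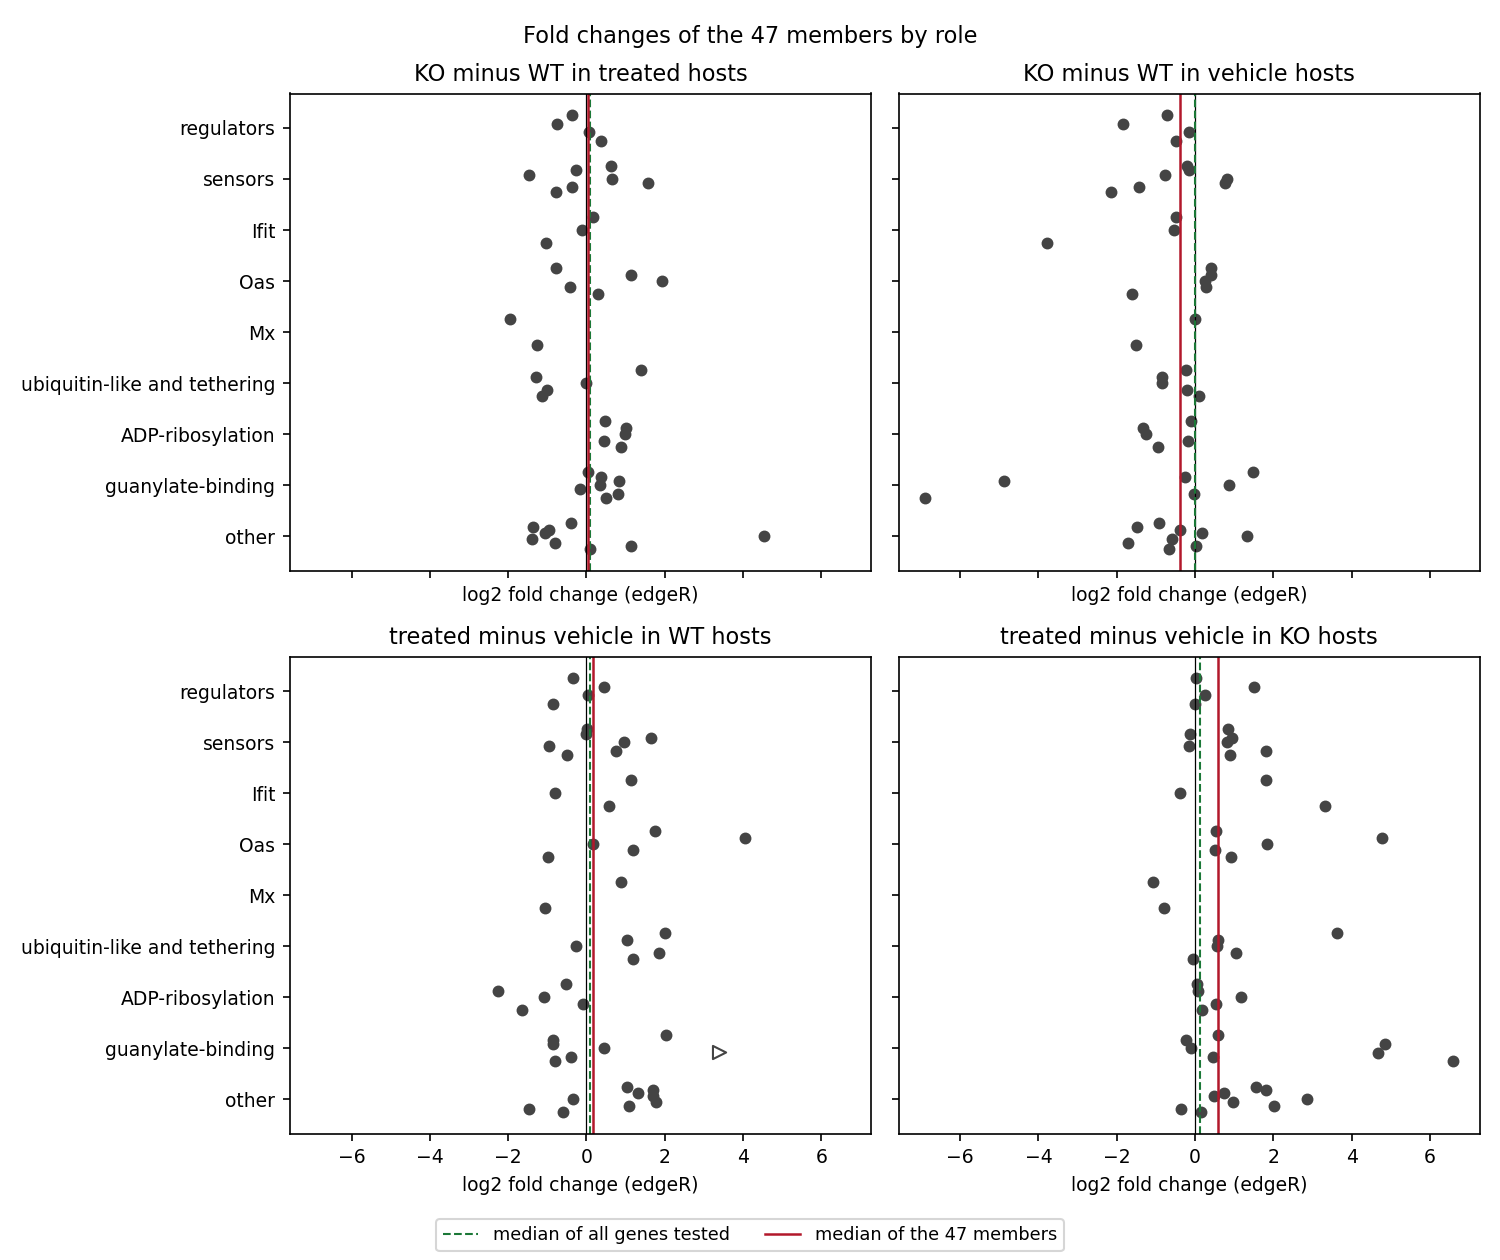
edgeR log2 fold change of each of the 47 members (points, by role) in the 4 comparisons of 2 groups, with the median of the members (red line) and of all genes tested (dashed green line). The open triangle is the lower bound for Gbp6, whose WT vehicle libraries are all at 0, and Gbp6 is not drawn for KO minus WT in vehicle hosts. The members' median lies 0.58 above 0 for treated minus vehicle in KO hosts, against 0.12 for all genes.

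The ligands themselves were almost silent in these libraries. Of 21 interferon genes measured, 15 had no count in any library, 6 had a count, and the highest count of any of them in a library was 10, so none was tested. The receptors were measured throughout. Ifnar1, a chain of the type I interferon receptor, stood at 19.4, 62.5 and 63.5 CPM in KO treated hosts, 33.97, 25.8 and 8.88 in WT treated hosts, 64.4 and 55.5 in KO vehicle hosts and 57.2, 69.8 and 26.0 in WT vehicle hosts. Ifnar2, its partner chain, stood at 128, 72.5 and 76.9 CPM in KO treated hosts, 122, 116 and 145 in WT treated hosts, 65.5 and 89.1 in KO vehicle hosts and 105, 178 and 86.5 in WT vehicle hosts. For both chains the groups overlapped in each comparison. The ligand-binding chain for interferon gamma, Ifngr1, ran from 131 to 674 CPM and its partner Ifngr2 from 34.1 to 63.6 CPM over the 11 libraries. The KO treated libraries of Ifngr2 (50.2, 39.5 and 47.9 CPM) lay just below the WT treated ones (60.9, 54.7 and 50.6 CPM), a log2 fold change of -0.27 ± 0.31. Log2 fold changes are given ± their SE.

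Jak1, a kinase shared by these receptors, stood at 129.7, 296 and 246 CPM in KO treated hosts, 122, 107 and 102 in WT treated hosts, 219.7 and 216 in KO vehicle hosts and 192, 212 and 263 in WT vehicle hosts. The 3 WT treated libraries were below all other 8. Its log2 fold change was 1.02 ± 0.32 for KO against WT under treatment (edgeR adjusted p = 0.405) and -1.01 ± 0.32 for treated against vehicle in WT hosts (edgeR adjusted p = 0.178). Tyk2, the partner kinase of the type I receptor, stood at 11.8, 74.1 and 84.9 CPM in KO treated hosts, 34.4, 20.1 and 20.1 in WT treated hosts, 49.8 and 100.1 in KO vehicle hosts and 43.0, 41.8 and 52.3 in WT vehicle hosts. For Tyk2 the WT treated libraries lay below the WT vehicle ones without overlap. In the wider pathway list of 102 names, 101 were matched and 77 tested, and 0 passed the test in any comparison. Of these 77, 30 were higher in KO treated than in WT treated hosts, 24 higher in KO vehicle than in WT vehicle hosts, 42 higher in WT treated than in WT vehicle hosts and 45 higher in KO treated than in KO vehicle hosts. An unadjusted p under 0.05 was reached by 8, 2, 11 and 4 of them in that order, which is 10.4, 2.60, 14.3 and 5.19% against 10.6, 6.78, 18.2 and 3.68% of all genes.

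Among the regulators, Irf1 (ENSMUSG00000018899.18), a factor that interferon gamma induces and that activates Gbp genes, had the highest mean log2 CPM. Irf1 stood at 46.4, 51.5 and 40.8 CPM in KO treated hosts, 61.0, 68.3 and 48.9 in WT treated hosts, 43.9 and 47.1 in KO vehicle hosts and 68.6, 83.6 and 72.9 in WT vehicle hosts. The 3 WT vehicle libraries were above every KO vehicle library and every WT treated library, with 68.6 CPM against at most 68.3 CPM at the closest. The log2 fold change was -0.72 ± 0.31 for KO against WT in vehicle hosts (edgeR adjusted p = 0.729). It was -1.16 with the trend with transcript length removed and -0.48 without libraries 253 and 265. Irf7, which amplifies type I interferon, stood at 30.5 to 69.4 CPM in KO treated hosts against 4.48 and 28.2 CPM in KO vehicle hosts, without overlap. In WT hosts Irf7 stood at 169, 31.1 and 35.8 CPM with treatment and 152, 9.74 and 12.6 CPM with vehicle, where 1 library in each group was far above its companions. Stat2 and Irf9, which act together at the ISRE, ran from 14.8 to 54.8 CPM and from 8.37 to 85.0 CPM over all libraries, both lowest in library 265 and highest in library 240.

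The sensors and effectors of nucleic acid were led by Ifi203 (ENSMUSG00000039997.17), a PYHIN protein of the family that binds DNA, whose promoter match is shown above. Ifi203 stood at 156, 112 and 54.8 CPM in KO treated hosts, 229, 89.0 and 99.5 in WT treated hosts, 28.9 and 32.1 in KO vehicle hosts and 143, 53.9 and 51.5 in WT vehicle hosts. Both KO vehicle libraries were below all other 9. The log2 fold change was 1.82 ± 0.62 for treated against vehicle in KO hosts (edgeR adjusted p = 1) and -1.44 ± 0.61 for KO against WT in vehicle hosts (edgeR adjusted p = 0.729). Its exons overlap those of Mndal, another PYHIN gene, on the same strand in the GENCODE M21 annotation, and the family's genes are alike, so their reads may be split. The value in vehicle hosts was -0.79 without library 240 and -0.92 with the percentage of reads outside genes in the model.

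Adar (ENSMUSG00000027951.17), which edits adenosine to inosine in double-stranded RNA, stood at 10.3, 51.3 and 35.5 CPM in KO treated hosts, 13.02, 11.3 and 8.36 in WT treated hosts, 39.8 and 31.9 in KO vehicle hosts and 26.0, 11.4 and 26.1 in WT vehicle hosts. Library 257 lay with the 3 WT treated libraries and the other 2 KO treated libraries lay well above them. Its log2 fold change for KO against WT in treated hosts was 1.57 ± 0.57 (edgeR adjusted p = 0.434), 1.99 without library 257 and 0.96 with the length trend removed. Eif2ak2, the kinase PKR that halts translation when it binds double-stranded RNA, stood at 38.3, 45.1 and 52.7 CPM in KO treated hosts, 43.7, 26.2 and 16.01 in WT treated hosts, 25.5 and 26.1 in KO vehicle hosts and 13.6, 19.4 and 10.8 in WT vehicle hosts. It was higher with treatment in KO hosts without overlap, and higher in KO than in WT vehicle hosts without overlap. Of the other sensors, Zbp1, which binds Z-form nucleic acid, was lower in KO treated hosts (8.96 to 12.8 CPM) than in WT treated hosts (13.4 to 63.4 CPM). Ifih1 and Dhx58, which sense viral double-stranded RNA, and Ifi204, a PYHIN relative of Ifi203, overlapped between the groups of every comparison.

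Ifit proteins, which bind foreign RNA, were few in counts. Ifit2 (ENSMUSG00000045932.13), the highest by mean log2 CPM of the 3, stood at 5.88, 18.9 and 11.9 CPM in KO treated hosts, 21.5, 10.8 and 7.54 in WT treated hosts, 16.7 and 15.1 in KO vehicle hosts and 43.3, 21.7 and 3.82 in WT vehicle hosts. All groups overlapped, and the highest and lowest values of the gene were both in WT vehicle hosts. Ifit1 and Ifit3 were higher with treatment in KO hosts without overlap, Ifit1 at 3.36 to 9.14 CPM against 2.42 and 1.47 CPM and Ifit3 at 2.72 to 6.53 CPM against 0.895 and 0.0409 CPM. In WT vehicle hosts Ifit3 stood at 19.4, 0 and 0 CPM, so that group spans almost the whole range of the gene.

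The oligoadenylate synthetases, which make the messenger that switches on RNase L, were all higher in treated than in vehicle KO hosts, 5 of 5. Of all genes 56.1% had a positive log2 fold change there. The median of the 5 was 0.93 on the log2 scale and ran from 0.65 to 1.56 over all the alternatives run. Oasl1 and Oas1a were smaller than their SE, at 0.50 ± 1.18 and 0.55 ± 1.08, and Oas3 was near it, at 1.85 ± 1.61. Oasl2 (ENSMUSG00000029561.18), a relative with a ubiquitin-like tail, stood at 21.6, 47.9 and 24.8 CPM in KO treated hosts, 40.9, 19.8 and 16.4 in WT treated hosts, 21.1 and 11.9 in KO vehicle hosts and 104, 40.8 and 6.77 in WT vehicle hosts. It was higher with treatment in KO hosts without overlap, by a log2 fold change of 0.93 ± 0.86 (edgeR adjusted p = 1). Oas2 (ENSMUSG00000032690.17) stood at 2.16, 5.04 and 3.45 CPM in KO treated hosts, 3.16, 1.42 and 0.258 in WT treated hosts, 0 and 0.246 in KO vehicle hosts and 0.258, 0 and 0 in WT vehicle hosts. Its 3 KO treated libraries were above both KO vehicle libraries, and the log2 fold change of 4.78 ± 2.05 (edgeR adjusted p = 1) rests on few reads and was 9.28 without library 275. Oas1a was higher in WT treated hosts (42.9 to 66.1 CPM) than in WT vehicle hosts (0.246 to 38.1 CPM) without overlap. Oas3 reached 51.9 CPM in library 276 and at most 23.5 CPM elsewhere, and Oasl1 ran from 0.616 to 20.0 CPM over all libraries.

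The Mx genes, of the dynamin-like GTPase family, went the other way from most members in KO hosts. Both were lower in treated than in vehicle KO hosts, with log2 fold changes of -1.08 ± 1.88 for Mx1 and -0.80 for Mx2, both smaller than their SE. Mx2 ran from 0 to 6.07 CPM over all libraries. Mx1 (ENSMUSG00000000386.17) stood at 0.460, 2.26 and 1.67 CPM in KO treated hosts, 11.7, 2.56 and 2.84 in WT treated hosts, 1.66 and 4.54 in KO vehicle hosts and 9.24, 0 and 0 in WT vehicle hosts. The KO treated libraries were all below the WT treated ones, with a log2 fold change of -1.96 ± 1.76 (edgeR adjusted p = 0.766).

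Isg15 (ENSMUSG00000035692.8), the ubiquitin-like protein whose promoter carries the run of 3 ISRE matches, had the smallest p of the members for treated against vehicle in KO hosts. Isg15 stood at 105, 25.9 and 226 CPM in KO treated hosts, 98.3, 16.8 and 20.5 in WT treated hosts, 5.15 and 14.1 in KO vehicle hosts and 20.9, 8.92 and 3.82 in WT vehicle hosts. All 3 KO treated libraries were above both KO vehicle libraries, and 257, 276 and the WT treated library 252 stood apart from the remaining 8 at 25.9 CPM or less. The log2 fold change in KO hosts was 3.63 ± 1.15 (edgeR adjusted p = 1) and 2.31 by limma voom, and in WT hosts 2.003 ± 0.91 (edgeR adjusted p = 0.27). Uba7, the enzyme that activates ISG15 for conjugation, stood at 24.6, 78.0 and 68.5 CPM in KO treated hosts, 21.9, 21.0 and 12.4 in WT treated hosts, 48.0 and 48.0 in KO vehicle hosts and 46.7, 41.4 and 28.2 in WT vehicle hosts. Ube2l6, the enzyme that then carries it, stood at 195, 363 and 1352 CPM in KO treated hosts, 121, 69.3 and 85.1 in WT treated hosts, 25.3 and 233 in KO vehicle hosts and 110.1, 47.01 and 37.1 in WT vehicle hosts. For both genes the KO treated libraries all lay above the WT treated ones, by log2 fold changes of 1.63 ± 0.45 and 2.79 ± 0.86 (edgeR adjusted p = 0.383 and 0.405), and these had the smallest 2 p-values of the wider list there. Usp18, which removes ISG15, stood at 7.06 to 12.5 CPM in KO treated hosts and 12.4 to 39.6 CPM in WT treated hosts.

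Erythroid markers stood beside these values. The 8 of them, all measured and among them Hba-a1, Hbb-bs, Alas2 and Klf1, summed to 37142, 18283 and 87831 CPM in KO treated hosts, 483, 199.7 and 505 CPM in WT treated hosts, 270.3 and 14283 CPM in KO vehicle hosts and 858, 50.4 and 124 CPM in WT vehicle hosts. The 4 highest libraries are all from KO hosts. Rsad2 (ENSMUSG00000020641.17), viperin, which makes an antiviral nucleotide, stood at 57.5, 107 and 705 CPM in KO treated hosts, 25.6, 8.14 and 3.82 in WT treated hosts, 4.39 and 75.3 in KO vehicle hosts and 46.3, 0.292 and 0.616 in WT vehicle hosts. The same 4 libraries held its 4 highest values, and Ube2l6 was highest in the same 4. Within KO vehicle hosts, library 275 with 14283 CPM of erythroid markers had 75.3 CPM of Rsad2 and 233 CPM of Ube2l6, and library 249 with 270.3 CPM had 4.39 and 25.3 CPM. Isg15 had 14.1 CPM in library 275 and 5.15 CPM in library 249. The log2 fold change of Rsad2 for KO against WT in treated hosts was 4.53 ± 1.77 (edgeR adjusted p = 0.434), and 2.69 to 5.59 on leaving out single libraries, the lowest without library 276. The part of erythroid RNA in these values was not tested.

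**Figure D4:**
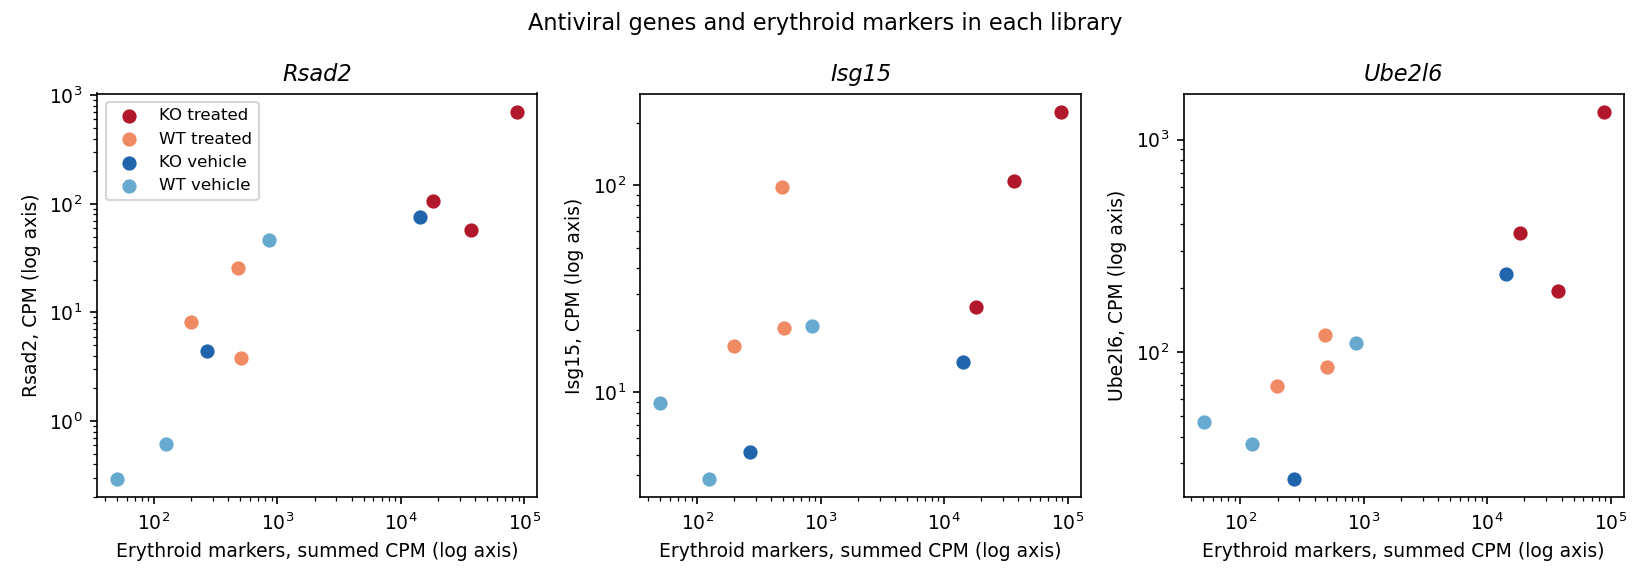
Level of Rsad2, Isg15 and Ube2l6 (CPM, log axis) against the summed level of 8 erythroid markers (CPM, log axis), 1 point a library, coloured by group. The 4 libraries with the most erythroid RNA hold the 4 highest values of Rsad2 and of Ube2l6, while Isg15 is also high in WT treated library 252.

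Bst2 and Ly6e, both anchored in the cell membrane, were higher in WT treated than in WT vehicle hosts without overlap. Bst2 (ENSMUSG00000046718.9), tetherin, which holds budding virions on the cell, stood at 246, 57.8 and 52.9 CPM in KO treated hosts, 339, 188 and 190.3 in WT treated hosts, 59.3 and 54.9 in KO vehicle hosts and 97.2, 46.0 and 55.7 in WT vehicle hosts. All 3 WT treated libraries were above all 8 others except KO treated library 257. Its log2 fold change for treated against vehicle in WT hosts was 1.85 ± 0.58 (edgeR adjusted p = 0.177), 0.82 with the length trend removed and 2.99 with the percentage of reads outside genes in the model. Ly6e (ENSMUSG00000022587.15), which restricts the entry of coronaviruses, stood at 1515, 631 and 984 CPM in KO treated hosts, 2593, 2213 and 2087 in WT treated hosts, 938 and 1220.4 in KO vehicle hosts and 973, 1278 and 747 in WT vehicle hosts. The 3 WT treated libraries were above all other 8. Its log2 fold change was 1.201 ± 0.38 for treated against vehicle in WT hosts (edgeR adjusted p = 0.177) and -1.14 ± 0.38 for KO against WT under treatment (edgeR adjusted p = 0.406), and both share the WT treated libraries. Plasmacytoid dendritic cell markers, 9 of 9 measured and 1 of them with a median under 1 CPM, summed to 158 to 236 CPM in KO treated hosts, 218 to 246 CPM in WT treated hosts, 81.1 to 84.0 CPM in KO vehicle hosts and 85.7 to 166 CPM in WT vehicle hosts. Bst2 is a known marker of those cells, and their part in its values was not tested. Trim25 (ENSMUSG00000000275.17), a ubiquitin ligase of RNA sensing, stood at 36.8, 44.3 and 47.7 CPM in KO treated hosts, 56.1, 36.3 and 37.7 in WT treated hosts, 27.7 and 30.2 in KO vehicle hosts and 44.3, 52.0 and 59.1 in WT vehicle hosts. Both KO vehicle libraries were below all others, with a log2 fold change against WT vehicle hosts of -0.84 ± 0.35 (edgeR adjusted p = 0.729), -0.50 without libraries 253 and 265 and -1.28 with the length trend removed.

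All 5 ADP-ribosylation genes (Parp9, Parp10, Parp12, Parp14 and Dtx3l) were higher in KO than in WT treated hosts, where 53.9% of all genes were. Their median was 0.88 on the log2 scale. Parp9, Parp12 and Parp14 were smaller than their SE there, at 0.47 ± 0.67, 0.99 ± 1.13 and 0.46 ± 0.97. All 5 were also higher under each of the other scalings, with a median of 0.45 with the length trend removed. All 5 were lower in treated than in vehicle WT hosts, with a median of -1.07, or 4 of 5 under upper-quartile scaling and with the length trend removed. Over all the alternatives run up to 2 of the 5 were higher there and the median ran from -1.62 to -0.51. All 5 were lower in KO than in WT vehicle hosts, with a median of -0.93. Parp9 and Parp14 were near 0 there, at -0.11 ± 0.75 and -0.18 ± 1.09, and over all the alternatives run up to 2 of the 5 were higher and the median ran from -1.37 to -0.47. Parp10 (ENSMUSG00000063268.13), which attaches single ADP-ribose units, stood at 13.5, 23.9 and 19.8 CPM in KO treated hosts, 10.8, 10.7 and 6.76 in WT treated hosts, 17.9 and 18.3 in KO vehicle hosts and 40.3, 60.6 and 35.3 in WT vehicle hosts. The 3 WT vehicle libraries were above all other 8 and the 3 WT treated libraries below all other 8, with both KO groups between them. Its means were 19.1 ± 5.27 CPM in KO treated hosts (SD, n = 3), 9.45 ± 2.32 in WT treated hosts (n = 3), 18.1 ± 0.306 in KO vehicle hosts (n = 2) and 45.4 ± 13.4 in WT vehicle hosts (n = 3).

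For Parp10 the log2 fold change was -2.26 ± 0.43 for treated against vehicle in WT hosts (edgeR adjusted p = 0.172), the smallest p of any member in any comparison. For treated against vehicle in KO hosts it was 0.07 ± 0.45. It was 1.01 ± 0.41 for KO against WT in treated hosts and -1.33 ± 0.47 in vehicle hosts (edgeR adjusted p = 0.438 and 0.729). The interaction was 2.34 ± 0.63 (edgeR adjusted p = 0.767). Dtx3l (ENSMUSG00000049502.18), the ubiquitin ligase that works in a complex with PARP9, stood at 26.5, 59.1 and 65.8 CPM in KO treated hosts, 38.0, 25.4 and 18.6 in WT treated hosts, 49.2 and 40.6 in KO vehicle hosts and 77.7, 89.2 and 90.4 in WT vehicle hosts. Its 3 WT vehicle libraries were again above all other 8. The log2 fold change for treated against vehicle in WT hosts was -1.65 ± 0.39 (edgeR adjusted p = 0.172) and the interaction was 1.82 ± 0.59 (edgeR adjusted p = 0.767). Parp9 itself, its neighbour, ran from 7.12 to 53.8 CPM, with both ends in WT vehicle hosts, and the groups overlapped in each comparison. Parp12 and Parp14, also mono-ADP-ribosyltransferases, ran from 0.175 to 35.02 CPM and from 0.408 to 28.9 CPM. In the GENCODE M21 annotation the exons of Dtx3l and Parp9 overlap by up to 367 bases on opposite strands, and an exon of Parp10 overlaps Plec by 205 bases on the same strand. Reads in either overlap cannot be assigned with certainty. In all, 20 of the 47 members have an exon that overlaps another gene, 11 of them on the opposite strand.

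**Figure D5:**
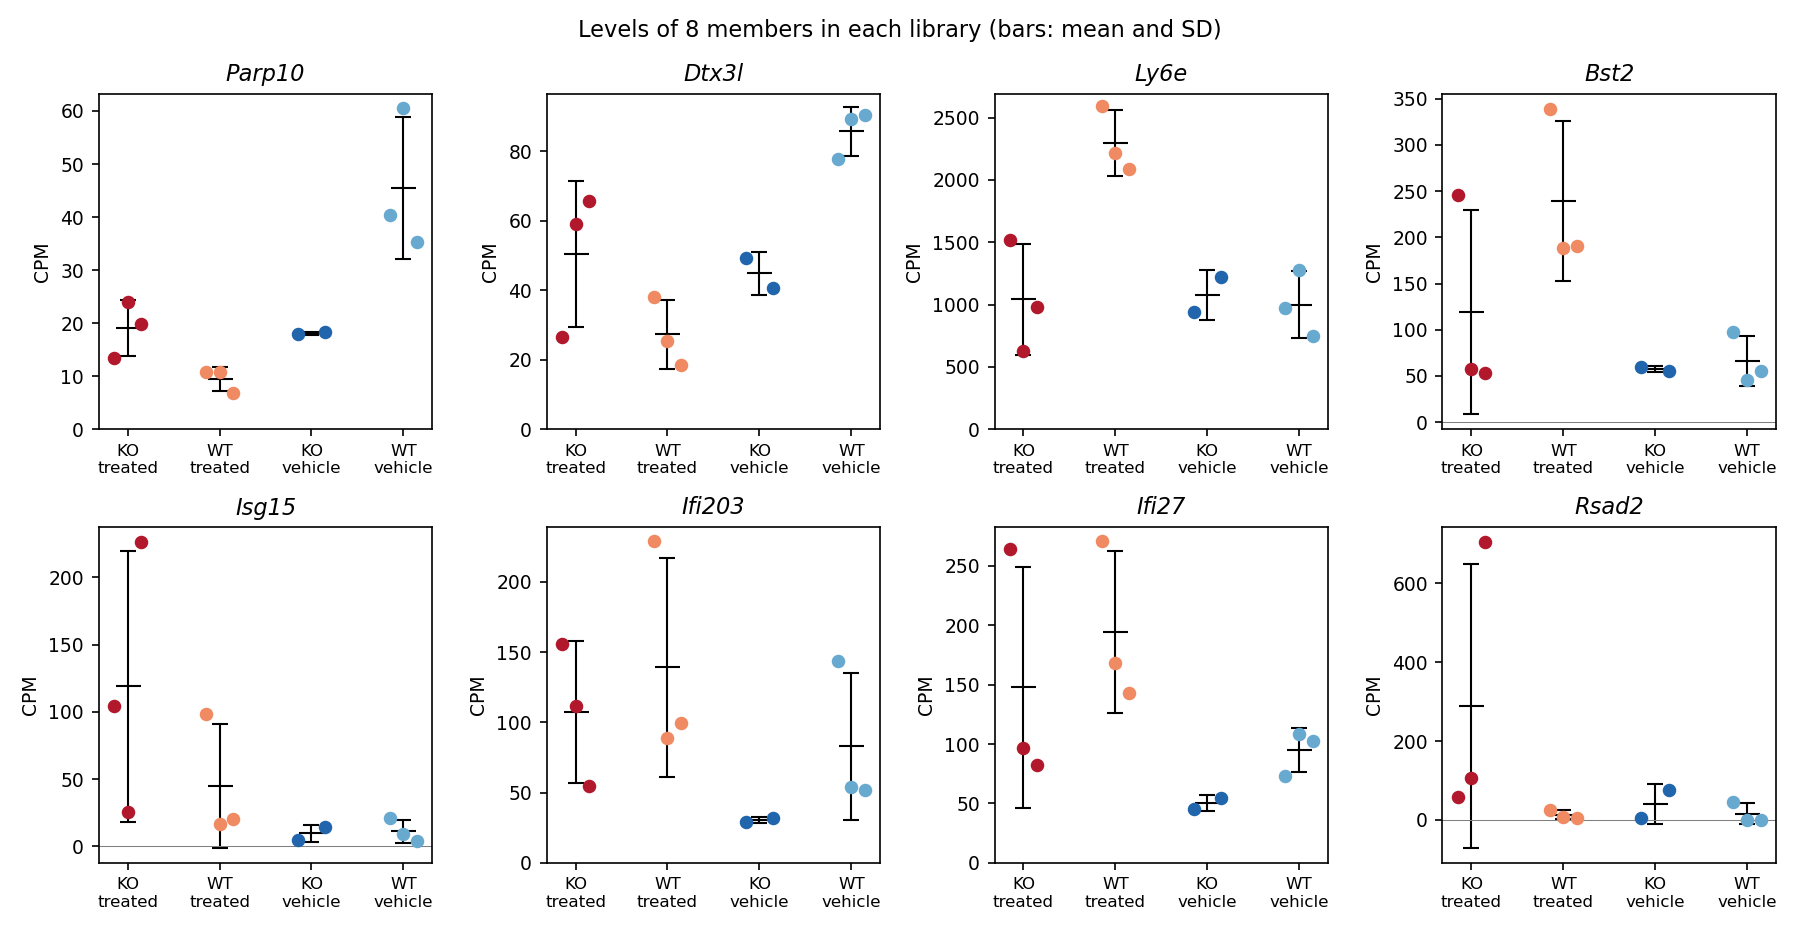
CPM of 8 members in each library (points) with the mean and SD of each group (bars), in the order KO treated, WT treated, KO vehicle and WT vehicle. Parp10 and Dtx3l are highest in WT vehicle hosts (35.3 to 60.6 CPM and 77.7 to 90.4 CPM) and Ly6e in WT treated hosts (2087 to 2593 CPM).

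The guanylate-binding proteins, large GTPases that coat and break open the compartments of intracellular pathogens, split by level. Gbp7 (ENSMUSG00000040253.16), the highest by mean log2 CPM of the 7, stood at 94.2, 113 and 82.0 CPM in KO treated hosts, 66.0, 59.1 and 39.9 in WT treated hosts, 85.2 and 56.1 in KO vehicle hosts and 69.3, 74.1 and 73.6 in WT vehicle hosts. The KO treated libraries were above both WT groups, and the WT treated libraries were below the WT vehicle ones. Its log2 fold change for KO against WT in treated hosts was 0.81 ± 0.30 (edgeR adjusted p = 0.434) and 0.46 with the length trend removed. Gbp3 was likewise lower in WT treated hosts (36.3 to 57.5 CPM) than in WT vehicle hosts (67.9 to 108 CPM) without overlap. Gbp2, Gbp4, Gbp6 and Gbp9 were higher with treatment in KO hosts without overlap, 4 of the 7, where 12.3% of all genes were. Gbp2 stood at 20.0, 27.5 and 18.1 CPM in KO treated hosts and 16.6 and 12.6 CPM in KO vehicle hosts.

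The other 3 of those genes had few reads. Gbp4 stood at 0.184, 3.98 and 5.41 CPM in KO treated hosts and 0.0448 and 0.164 CPM in KO vehicle hosts. Its lowest KO treated value, in library 257, was barely above the 0.164 CPM of library 275. Gbp9 (ENSMUSG00000029298.16) stood at 0.781, 2.14 and 4.78 CPM in KO treated hosts, 4.64, 0.773 and 0 in WT treated hosts, 0 and 0.0409 in KO vehicle hosts and 9.43, 0 and 0 in WT vehicle hosts. Library 240 alone held its highest value while its 2 companions were at 0, and the interaction of 7.40 ± 3.77 (edgeR adjusted p = 0.767) turned to -1.79 without that library. Gbp6 stood at 0.276, 1.08 and 0.741 CPM in KO treated hosts, 1.76, 0.570 and 0 in WT treated hosts, 0.0448 and 0 in KO vehicle hosts and 0, 0 and 0 in WT vehicle hosts. Its mean in WT treated hosts was at least 10.6-fold higher, against a floor of 3 counts over the WT vehicle group, which covers counting error only. That bound was 3.87-fold without library 252, an alternative chosen after the data were seen. In vehicle hosts Gbp6 was under that floor in both genotypes, so no fold is given. Gbp4, Gbp8 and Gbp9 share exon bases in the annotation and resemble each other, so reads of 1 may be counted for another. Gbp5 ran from 0.467 to 13.1 CPM, and the groups overlapped in each comparison.

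Of the remaining members, Ifi27 (ENSMUSG00000064215.14), a small mitochondrial protein, had the highest mean log2 CPM. Ifi27 stood at 265, 96.4 and 82.5 CPM in KO treated hosts, 271, 169 and 143 in WT treated hosts, 45.4 and 54.8 in KO vehicle hosts and 73.5, 109 and 103 in WT vehicle hosts. Both KO vehicle libraries were below all other 9, and the log2 fold change for treated against vehicle in KO hosts was 1.56 ± 0.52 (edgeR adjusted p = 1), 0.83 without library 257 and 0.99 by limma voom. In WT hosts treated libraries were also above all vehicle libraries, by 1.03 ± 0.44 (edgeR adjusted p = 0.254). Ifi35 was higher in WT treated (53.3 to 102 CPM) than in WT vehicle hosts (24.8 to 35.1 CPM), and Cmpk2, a mitochondrial nucleotide kinase beside Rsad2 in the genome, was lower (11.5 to 15.95 CPM against 35.6 to 39.9 CPM), both without overlap. Library 276, highest for both, had 60.3 CPM of Cmpk2 and 705 CPM of Rsad2, and library 257 had 8.55 and 57.5 CPM. Rtp4 was higher in KO treated (12.002 to 31.3 CPM) than in KO vehicle hosts (3.71 and 6.51 CPM). Ifi27l2a, Ifi44, Xaf1 and Samd9l overlapped between the groups of every comparison, with Ifi27l2a spanning 2.33 CPM in library 249 to 502 CPM in library 252.

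Of the wider list, some genes are named because they had the smallest p-values in a comparison. Pml, which builds nuclear bodies, stood at 30.4, 77.3 and 85.9 CPM in KO treated hosts, 35.6, 19.4 and 22.3 in WT treated hosts, 52.7 and 41.2 in KO vehicle hosts and 47.6, 70.2 and 60.1 in WT vehicle hosts. Its log2 fold change was -1.20 ± 0.42 for treated against vehicle in WT hosts and 1.66 ± 0.63 for the interaction (edgeR adjusted p = 0.192 and 0.767). Tdrd7, which restrains viral replication, had 11.3, 8.34 and 2.01 CPM in WT treated hosts against 34.8, 33.4 and 40.5 CPM in WT vehicle hosts, and Ikbke, a kinase that activates IRF3, had 11.4, 13.3 and 22.9 against 23.2, 59.5 and 86.8 CPM. Both were lower in WT treated hosts without overlap, as Parp10, Dtx3l and Jak1 were. Lgals9, a secreted lectin, was higher in WT treated hosts (333, 499.7 and 431 CPM) than in WT vehicle hosts (259, 242 and 177 CPM), by 0.90 ± 0.28 (edgeR adjusted p = 0.177). Ptpn6, a phosphatase that damps cytokine signalling, was lower in KO treated (148, 257 and 243 CPM) than in KO vehicle hosts (359.8 and 402 CPM), and Phf11b was lower in KO treated (46.8, 30.2 and 16.3 CPM) than in WT treated hosts (239.8, 68.2 and 55.9 CPM). Lap3, an aminopeptidase, was higher in KO vehicle (90.1 and 72.4 CPM) than in WT vehicle hosts (51.6, 50.5 and 47.3 CPM). Gbp8 ran from 0.117 to 15.6 CPM, both ends in WT vehicle hosts. Ifi208 had no count in either KO vehicle library and at most 6.53 CPM elsewhere.

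Transcript length moved with the fold changes. Across the 47 members, log2 fold change and exon length had a rank correlation of 0.49 for KO against WT in treated hosts, where it was 0.41 across all genes with a length, and of -0.42 for treated against vehicle in WT hosts, where it was -0.31. It was -0.10 for treated against vehicle in KO hosts. These are correlations across genes in the same libraries. With the trend removed the first 2 were 0.25 and -0.21. Bst2 and Isg15 have 903 and 756 exon bases and Parp10 and Dtx3l have 4275 and 5725. With the trend removed, Parp10 and Dtx3l had log2 fold changes of -2.47 and -1.70 for treated against vehicle in WT hosts. The part of length in the members' values was not tested.

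Other tests called some of these members in the same direction. For treated against vehicle in WT hosts, DESeq2's Wald test called 4 members (Bst2 and Ly6e higher, Parp10 and Dtx3l lower) and 6.65% of all genes, with an adjusted p of 4.06e-06 for Parp10. Adding the percentage of reads outside genes to the edgeR model gave 7 members (Bst2, Ifi35 and Xaf1 higher, Parp10, Dtx3l, Cmpk2 and Gbp3 lower) and 12.6% of all genes. No filter on low counts gave 2 (Bst2 and Parp10) and 0.768%. Leaving out library 240 gave 4 (Gbp2, Ifi44 and Usp18 higher, Parp10 lower) and 1.15%, and leaving out library 257 gave 5 (Bst2, Ly6e and Ifi35 higher, Parp10 and Dtx3l lower) and 6.19%. For KO against WT in treated hosts, limma voom with quality weights called 10 members, 5 each way, and 26.3% of all genes. Without library 257, edgeR called 5 members there (Adar and Dtx3l higher, Ly6e, Bst2 and Ifi35 lower) and 9.26% of all genes. For the interaction DESeq2 called Parp10 alone, with an adjusted p of 0.0145, and 0.349% of all genes. Of the fits run, none called a member for KO against WT in vehicle hosts or for treated against vehicle in KO hosts.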

How the data were processed

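RNA of sorted bone marrow cells, in 11 libraries, was amplified with a low-input full-length kit and sequenced, per the labels' protocols. The authors deposited whole-number read counts per gene, not normalised. Per the submitters' processing notes, the tools included Trim Galore 0.6.7, STAR 2.7.9a, HTSeq and DESeq2, with build GRCm39. The annotation and strand setting are not given in the sources used here. The 5 summary lines of the table, which name no gene, were left out of library sizes and tests. These lines held 5.98 to 30.4% of reads per library as reads outside genes, 11.6 to 30.0% as reads with no unique position and 2.34 to 6.31% as ambiguous reads.

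The 47 members, the pathway list and the marker lists were chosen with earlier results of these data known. Counts were fitted over all 4 groups with edgeR 4.0.16 in R 4.3.3 (TMM scaling, filterByExpr, robust quasi-likelihood fit). P-values were adjusted over 16639 genes by the Benjamini-Hochberg method in 5 comparisons, with 0.05 as the threshold. The biological coefficient of variation was 0.783. Members were given in full if they had one of the 4 smallest p-values in a comparison or the highest mean log2 CPM of their role, which named 17. Pathway genes were named if they had one of the 3 smallest p-values in a comparison. The receptors and their kinases were always named, and some items are not reported here. Other members were described by ranges and overlap after their values were seen. Exon lengths and overlaps came from GENCODE M21, and promoters from RefSeq on GRCm38.p6. The alternatives were other scalings, filters and tests (limma 3.58.1 voom and DESeq2 1.42.0), a covariate, removal of the trend with transcript length, and leaving out each library. Scripts were tested on simulated data. Depth per library limits precision most for members under 1 CPM.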

Additional observations from a re-analysis of the deposited data

Results flagged for a closer look

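Parp10 stood out because the difference between hosts lay in opposite directions with and without treatment, with no overlap in either. Its values were 13.5, 23.9 and 19.8 CPM in KO treated hosts, 10.8, 10.7 and 6.76 CPM in WT treated hosts, 17.9 and 18.3 CPM in KO vehicle hosts and 40.3, 60.6 and 35.3 CPM in WT vehicle hosts. The difference of the log2 fold changes was 2.34 (SE 0.63; edgeR quasi-likelihood test, Benjamini-Hochberg adjusted p = 0.767), so it did not pass the test over all genes. Leaving out single libraries gave 2.08 to 2.54.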

How the results depend on the processing

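For all genes, calls at an adjusted p under 0.05 numbered 43, 11 and 215 without a filter on low counts for KO against WT in treated hosts, KO against WT in vehicle hosts and treated against vehicle in WT hosts. DESeq2 called 249, 224 and 1106 in the same comparisons, 23 for treated against vehicle in KO hosts and 58 for the interaction. Limma voom called 4375 for KO against WT in treated hosts, and the covariate fit 2100 for treated against vehicle in WT hosts. Of the 47 members, voom called 10 for KO against WT in treated hosts. For treated against vehicle in WT hosts, no filter called 2, DESeq2 4 and the covariate fit 7, and DESeq2 called 1 for the interaction. Leaving out 1 library at a time gave 0 to 1513 genes for KO against WT in treated hosts, 0 to 85 in vehicle hosts, 0 to 1012 for treated against vehicle in WT hosts and 0 to 1 for the interaction. Members called then ran from 0 to 5 for KO against WT in treated hosts and from 0 to 5 for treated against vehicle in WT hosts. The members' median ran from -0.46 to 1.18 for treated against vehicle in WT hosts and from -0.52 to 1.06 for the interaction. The interaction of Gbp9 ran from -1.79 to 9.59 and turned sign without library 240. The causes were not tested. Median log2 fold changes of all genes shifted to 0.32 under upper-quartile scaling for treated against vehicle in WT hosts, and to -0.33 for KO against WT in vehicle hosts with the length trend removed. Fits without a KO vehicle library keep 1 library there, whose spread is taken to equal that of the other groups. The fit on only the libraries compared gives no interaction. No paired analysis was possible because each number in the labels occurs in 1 group.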
